A study of Mus musculus with 9 samples.

Results

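The 10 genes described here code for the brake on the step from G1 to S phase and for its main switch: the CDK inhibitors Cdkn1a, Cdkn1b, Cdkn1c, Cdkn2a, Cdkn2c and Cdkn2d, the D cyclins Ccnd1, Ccnd2 and Ccnd3, and the retinoblastoma gene Rb1. They were chosen by gene symbol, with earlier results of these data known, and all 10 were found among the 55416 genes counted. Lenses were dissected from mouse embryos at E16.5, late in gestation, from matings of Atf4 heterozygotes, and RNA-seq was run on 1 library per pair of lenses. The Atf4 null group (4 libraries) was homozygous for Atf4tm1Tow, in which part of the Atf4 gene is replaced by a neomycin cassette in every cell of the animal, and the wildtype group (5 libraries) came from littermates on the same mixed C57Bl/6/129 background, with both sexes used. ATF4 is a transcription factor of the integrated stress response. The comparison asks how the transcripts that govern cell cycle exit differ between lenses with and without it.

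Cyclin D binds CDK4 or CDK6 and starts the phosphorylation of the Rb protein, which otherwise holds E2F factors back from the genes of DNA replication and mitosis. The INK4 inhibitors (Cdkn2a, Cdkn2c, Cdkn2d) bind CDK4 and CDK6 themselves, while the CIP/KIP inhibitors (Cdkn1a, Cdkn1b, Cdkn1c) bind cyclin-CDK complexes more broadly. In the lens, epithelial cells divide until they reach the equator, where they leave the cell cycle for good and become fiber cells. Cdkn1c, which codes for p57Kip2, marks that exit, and mouse lenses without Rb1 or without both Cdkn1b and Cdkn1c are known to have fiber cells that fail to stop dividing.

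Libraries held 7440807 to 8696699 gene-assigned counts in the Atf4 null group and 8409779 to 8906996 in the wildtype group, and levels are given as CPM, the counts scaled to a common library size with TMM factors. Atf4 itself measured 3.29, 8.64, 10.6 and 0.582 CPM in Atf4 null replicates 1 to 4 and 119 to 155 CPM in the wildtype libraries, so the level in each library went with its label. Several libraries stood apart in marker transcripts of other tissues or of lens cell types. Wildtype replicate 5 held 9646 CPM of 12 skeletal muscle markers and 14326 CPM of 9 mesenchyme markers, against at most 125 and 583 CPM in any other library. Markers of the retina (11 genes) summed to 841, 564, 626 and 333 CPM in Atf4 null replicates 1 to 4 and to 200, 249, 287, 300.4 and 254 CPM in wildtype replicates 1 to 5. Lens epithelium markers (5 genes, all tested) summed to 609 to 876 CPM in Atf4 null and 1108 to 1509 CPM in wildtype libraries, and 4 of the 5 passed the test as lower. Lens fiber markers (12 genes) summed to 24150.0, 37579, 36415 and 57712 CPM in Atf4 null replicates 1 to 4 and to 55484 to 61072 CPM in wildtype replicates 1 to 4, with 32350.0 CPM in wildtype replicate 5. Of these fiber markers 11 were tested and 5 passed as lower. Lim2 had 0 counts in every library, which is not read as absence of its transcript, and the reason was not tested. A lens library pools epithelium and fibers, so fewer cells of a type and less RNA per cell cannot be told apart in any value that follows.

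Of the 10 genes, 9 had enough counts for the test, and 3 of them passed it (edgeR quasi-likelihood test, Benjamini-Hochberg adjusted over 14903 genes, adjusted p under 0.05), against 5.90% of all genes tested. Cdkn1a and Ccnd1 rose in the Atf4 null lenses and Cdkn1c fell. Across all genes tested, 2.23% passed as higher and 3.67% as lower. The levels of the 4 Atf4 null and 5 wildtype libraries did not overlap for the same 3 genes, which 10.2% of all genes tested also showed. The median log2 fold change of the 9 genes was -0.19, beside 0.001 over all genes tested.

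**Figure D1:**
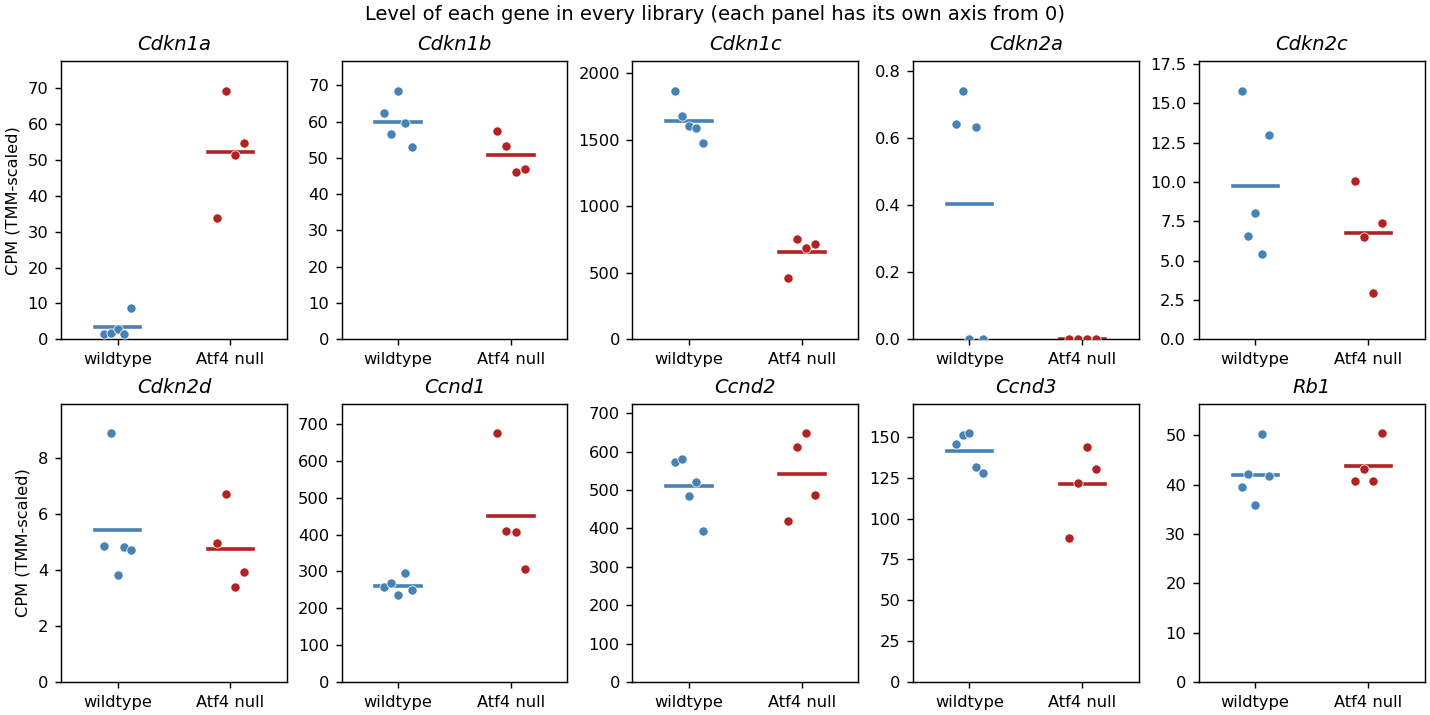
Level of each of the 10 genes (y axis, TMM-scaled CPM from 0, own scale per panel) in every wildtype (blue, n = 5) and Atf4 null (red, n = 4) library, with a bar at each group's mean. The groups lie apart for Cdkn1a, Cdkn1c and Ccnd1, and Cdkn2a has no count in any Atf4 null library.

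The sequence just upstream of Cdkn1a is shown because this gene changed most of the 10. It is the 150 bases before the start of the Ensembl canonical transcript on GRCm39, chr17:29312588-29312737, written 5′ to 3′ on the plus strand. Capitals mark GC boxes, the letters GGGCGG read on either strand, the kind of element to which SP1 binds. 
Cdkn1a: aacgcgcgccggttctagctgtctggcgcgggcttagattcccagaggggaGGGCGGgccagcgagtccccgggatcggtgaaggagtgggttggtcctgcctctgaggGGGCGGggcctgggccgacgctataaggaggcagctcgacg
From 250 bases before to 50 bases after its start, Cdkn1a held 2 GC boxes, and 42.5% of 21767 promoters held at least 1. The element TGATGCAA, a sequence that ATF4 heterodimers bind, was in none of the 10 windows, and 0.99% of all promoters held it on either strand.

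Cdkn1a also carried a sequence close to the full p53 consensus, shown because Cdkn1a is the classical p53 target of the family. It lies at chr17:29309902-29309921. Its first base is 2836 bases before the canonical start, and its last base is 15 bases before the furthest annotated start of the gene. Capitals mark the 20 bases of the match. 
p53 consensus match of Cdkn1a: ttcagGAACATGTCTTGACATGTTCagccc
It had 1 mismatch to the consensus, outside its fixed C and G. No other of the 10 genes held such a match, with at most 2 mismatches, in the 5000 bases before its start, and 5.25% of all such windows held one.

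Cdkn1a (ENSMUSG00000023067, chr17:29309936-29319701, plus strand) codes for p21, the CIP/KIP inhibitor that p53 induces after damage or stress. It measured 33.7, 69.2, 51.4 and 54.6 CPM in Atf4 null replicates 1 to 4 and 1.54, 1.73, 2.96, 1.52 and 8.78 CPM in wildtype replicates 1 to 5. The lowest Atf4 null library stood above the highest wildtype library, and wildtype replicate 5 stood above the other wildtype libraries. The means were 52.2 ± 14.6 CPM (SD, n = 4) and 3.31 ± 3.12 CPM (SD, n = 5), a 15.8-fold rise of the mean. The log2 fold change was 3.95 (SE 0.47, edgeR quasi-likelihood adjusted p = 0.000276), and the two-sided exact permutation test of the library means gave p = 0.0079, the smallest possible with 4 and 5 libraries. Without wildtype replicate 5, the library with muscle and mesenchyme transcripts, the log2 fold change was 4.74. All Atf4 null libraries had lower epithelium marker sums than all wildtype libraries, and the part of epithelium or fiber content in the Cdkn1a difference was not tested. Per exon length, Cdkn1a went from 0.547 ± 0.516 FPKM in wildtype to 8.64 ± 2.41 FPKM in Atf4 null lenses.

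Cdkn1c (ENSMUSG00000037664, chr7:143012069-143014806, minus strand) is an imprinted gene expressed from the maternal allele, and its product p57Kip2 is the CIP/KIP inhibitor of the newly formed fiber cell. Its levels were 463, 755, 690.0 and 716 CPM in Atf4 null replicates 1 to 4 and 1868, 1679, 1604, 1586 and 1475 CPM in wildtype replicates 1 to 5. Every Atf4 null library lay below every wildtype library, and Atf4 null replicate 1 was the lowest. The means were 656 ± 131 CPM (SD, n = 4) and 1642 ± 145 CPM (SD, n = 5), so the wildtype mean was 2.50-fold the Atf4 null mean. Cdkn1c fell by 1.32 on the log2 scale (SE 0.15, edgeR quasi-likelihood adjusted p = 0.000182, exact permutation p = 0.0079). The summed fiber markers were lower in Atf4 null replicates 1 to 3 (24150.0 to 37579 CPM) than in wildtype replicates 1 to 4. Atf4 null replicate 4 had 57712 CPM of fiber markers, inside the range of wildtype replicates 1 to 4, and 716 CPM of Cdkn1c, whereas wildtype replicate 5 had 32350.0 CPM of fiber markers and 1475 CPM of Cdkn1c. The epithelium marker sums separated the groups as Cdkn1c did, at 609 to 876 CPM in Atf4 null and 1108 to 1509 CPM in wildtype libraries, with Atf4 null replicate 4 the lowest. The part of fiber or epithelium content in the Cdkn1c difference was not tested. An antisense gene, Gm44732, shares 625 exon bases with Cdkn1c and measured 9.34 ± 4.53 CPM in Atf4 null and 18.1 ± 2.65 CPM in wildtype libraries (log2 fold change -0.96, SE 0.32, edgeR quasi-likelihood adjusted p = 0.106). The strand setting of the counting is not given in the sources used here, so reads of the pair may not be separated.

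Cdkn1b (ENSMUSG00000003031, chr6:134897364-134902476, plus strand) codes for p27Kip1, the inhibitor that accompanies p57Kip2 in fiber cells. It was read at 57.3, 53.2, 46.1 and 47.0 CPM in Atf4 null replicates 1 to 4 and at 62.4, 56.6, 68.4, 59.6 and 52.9 CPM in wildtype replicates 1 to 5. The groups overlapped, with wildtype replicate 5 below the highest 2 Atf4 null libraries. The means were 50.9 ± 5.31 CPM (SD, n = 4) and 60.0 ± 5.89 CPM (SD, n = 5), and the log2 fold change of -0.24 (SE 0.13) did not pass (edgeR quasi-likelihood adjusted p = 0.366, exact permutation p = 0.063).

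Set side by side within a library, the 3 CIP/KIP genes changed their proportions. Summed per exon length, they made 324 ± 62.5 FPKM in Atf4 null and 776 ± 67.6 FPKM in wildtype lenses. Cdkn1c remained the most abundant in every library, with 93.8 ± 1.08% of that sum in Atf4 null and 98.2 ± 0.191% in wildtype lenses. The share of Cdkn1a was 2.63 ± 0.297% and 0.0743 ± 0.0762%, with 0.208% in wildtype replicate 5 and 0.0289 to 0.0645% in the other wildtype libraries. As a share of CPM, without length, Cdkn1a made 6.80% and 0.204%. The share of Cdkn1b per exon length was 3.61 ± 1.20% and 1.70 ± 0.172%. The log2 ratio of Cdkn1a to Cdkn1c was -5.27, -4.93, -5.23 and -5.20 in Atf4 null replicates 1 to 4 and -11.67, -11.36, -10.54, -11.46 and -8.87 in wildtype replicates 1 to 5. The groups were far apart, and the ratio was 49.3-fold higher in the Atf4 null lenses (exact permutation p = 0.0079, adjusted p = 0.014 over 7 ratios). Cdkn1b rose relative to Cdkn1c by 1.11 on the log2 scale and Cdkn1a relative to Cdkn1b by 4.52, each with the same exact permutation p and adjusted p. For these 3 ratios and that of Ccnd1 to Ccnd3, the adjusted p was 0.05 without wildtype replicates 1 to 4, each in turn, when the exact permutation p can be no lower than 0.029.

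**Figure D2:**
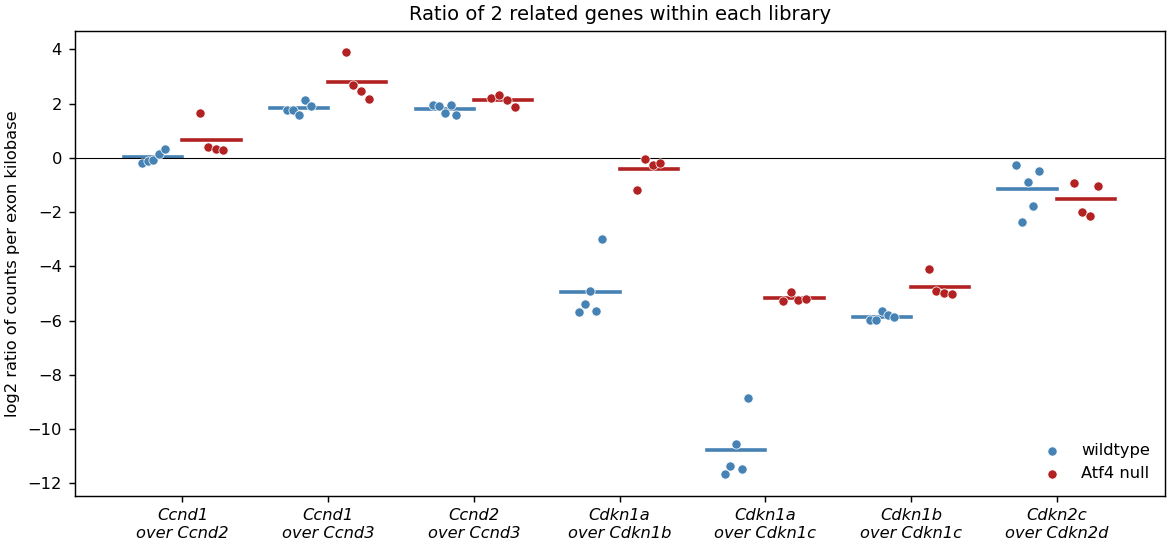
Log2 ratio of counts per exon kilobase (y axis) of 7 pairs of related genes in each wildtype (blue) and Atf4 null (red) library, with a bar at each group's mean. Cdkn1a over Cdkn1c lies between -11.67 and -8.87 in wildtype and between -5.27 and -4.93 in Atf4 null libraries, and the groups overlap for Ccnd1 over Ccnd2, Ccnd2 over Ccnd3 and Cdkn2c over Cdkn2d.

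The INK4 genes were low throughout, with a summed level of 3.92 FPKM in Atf4 null and 5.14 FPKM in wildtype lenses. Cdkn2a (ENSMUSG00000044303, chr4:89192708-89212890, minus strand), the gene shared by p16Ink4a and p19Arf, had no count in any Atf4 null library and 5, 6, 0, 5 and 0 counts in wildtype replicates 1 to 5. It was too low to be tested, and counts per gene do not separate its 2 products. A count of 0 allows up to 3 counts, or 0.299 to 0.437 CPM in the Atf4 null libraries, for counting error alone. Its neighbour Cdkn2b, which codes for p15Ink4b, had 7, 30, 0 and 7 counts in Atf4 null replicates 1 to 4 and 7, 6, 0, 5 and 0 in wildtype replicates 1 to 5, and was not tested either.

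Cdkn2c (ENSMUSG00000028551, chr4:109517957-109524386, minus strand), which codes for p18Ink4c, measured 10.1, 6.48, 2.96 and 7.43 CPM in Atf4 null replicates 1 to 4 and 15.8, 6.54, 8.03, 5.44 and 13.0 CPM in wildtype replicates 1 to 5. The groups overlapped widely, and the log2 fold change of -0.53 (SE 0.42) did not pass (edgeR quasi-likelihood adjusted p = 0.549). Cdkn2d (ENSMUSG00000096472, chr9:21199700-21202727, minus strand), which codes for p19Ink4d, measured 4.98, 6.72, 3.40 and 3.93 CPM against 4.88, 8.89, 3.83, 4.81 and 4.71 CPM. Wildtype replicate 2 was the highest of these, the groups overlapped, and the log2 fold change was -0.19 (SE 0.40, edgeR quasi-likelihood adjusted p = 0.865). At these levels a standard error near 0.4 on the log2 scale leaves moderate differences undetectable.

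Ccnd1 (ENSMUSG00000070348, chr7:144483668-144493662, minus strand) codes for cyclin D1, which growth signals induce. Atf4 null replicates 1 to 4 held 674, 410.2, 407 and 306 CPM, and wildtype replicates 1 to 5 held 256, 269, 237, 296 and 249.9 CPM. The groups did not overlap, although Atf4 null replicate 4 and wildtype replicate 4 were close, and Atf4 null replicate 1 stood far above the rest. The means were 449.6 ± 158 CPM (SD, n = 4) and 262 ± 22.6 CPM (SD, n = 5), a rise of 1.72-fold. The log2 fold change was 0.78 (SE 0.18, edgeR quasi-likelihood adjusted p = 0.0237, exact permutation p = 0.0079).

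Of the 3 genes that passed, Ccnd1 was the one whose call depended on single libraries. The adjusted p of the same test was 0.0507 without Atf4 null replicate 2, and 0.0586, 0.0548 and 0.069 without wildtype replicates 1, 2 and 3 in turn, at log2 fold changes of 0.82, 0.77, 0.79 and 0.75. Without Atf4 null replicate 1 the log2 fold change was 0.52 and passed at an adjusted p of 0.03. Like Ccnd1, the retina marker sums were higher in all Atf4 null than in all wildtype libraries. Atf4 null replicate 1 had the highest sum (841 CPM) and the highest Ccnd1, and Atf4 null replicate 4 had the lowest of its group in both (333 and 306 CPM). Within the wildtype group, replicate 4 had the highest of both (300.4 and 296 CPM), whereas replicate 3 had the lowest Ccnd1 (237 CPM) with a retina sum of 287 CPM and replicate 1 had the lowest retina sum (200 CPM) with 256 CPM of Ccnd1. Of the 10 retina markers tested, 5 passed as higher in Atf4 null lenses and none as lower. The part of retinal transcripts in the Ccnd1 difference was not tested. LTO1, on the opposite strand, shares 2315 exon bases with Ccnd1 and measured 18.2 ± 4.38 and 23.5 ± 5.76 CPM (log2 fold change -0.37, edgeR quasi-likelihood adjusted p = 0.437).

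**Figure D3:**
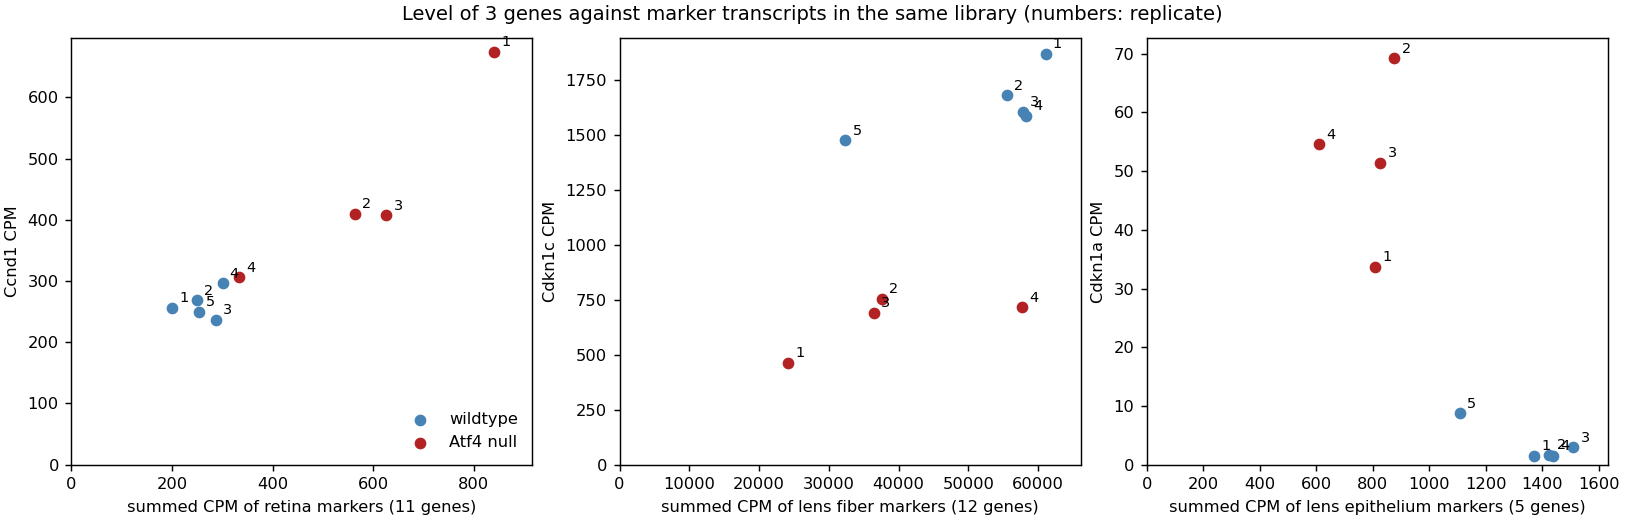
Level of Ccnd1, Cdkn1c and Cdkn1a (y axes, CPM) against the summed CPM of retina, lens fiber and lens epithelium markers (x axes) in each wildtype (blue) and Atf4 null (red) library, numbered by replicate. Ccnd1 is highest where the retina sum is highest (674 and 841 CPM in Atf4 null replicate 1), the fiber sums of Atf4 null replicates 1 to 3 (24150.0 to 37579 CPM) lie below and that of replicate 4 (57712 CPM) within those of wildtype replicates 1 to 4, and the epithelium sums of all Atf4 null libraries (609 to 876 CPM) lie below those of all wildtype libraries.

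Ccnd2 (ENSMUSG00000000184, chr6:127102125-127129156, minus strand), the gene of cyclin D2, measured 418, 613, 647 and 488 CPM in Atf4 null replicates 1 to 4 and 572, 579.5, 485, 521 and 392 CPM in wildtype replicates 1 to 5. The groups overlapped over most of their range, with means of 541 ± 107 and 510.1 ± 76.4 CPM and a log2 fold change of 0.09 (SE 0.16, edgeR quasi-likelihood adjusted p = 0.836). Ccnd3 (ENSMUSG00000034165, chr17:47815767-47910624, plus strand), the gene of cyclin D3, measured 88.1, 122, 144 and 130.5 CPM against 146, 151, 152, 131 and 128 CPM. The lowest library was Atf4 null replicate 1, the groups overlapped, and the log2 fold change was -0.23 (SE 0.14, edgeR quasi-likelihood adjusted p = 0.412, exact permutation p = 0.095). Bysl, on the opposite strand, shares 369 exon bases with Ccnd3 and measured 48.7 ± 9.20 CPM in Atf4 null and 38.1 ± 8.43 CPM in wildtype libraries (log2 fold change 0.35, edgeR quasi-likelihood adjusted p = 0.367).

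Per exon length the D cyclins summed to 165 ± 26.7 FPKM in Atf4 null and 124 ± 11.2 FPKM in wildtype lenses. Wildtype lenses held Ccnd1 and Ccnd2 in near equal parts, at 44.2 ± 3.37% and 43.4 ± 3.23% of the sum, with 12.4 ± 1.17% for Ccnd3. In Atf4 null lenses the shares were 56.0 ± 10.9%, 35.7 ± 8.64% and 8.24 ± 2.52%. As shares of CPM, without length, Ccnd2 led Ccnd1 in both groups, at 55.6% against 28.8% in wildtype and 48.9% against 40.0% in Atf4 null lenses. Atf4 null replicate 1 was the most uneven, with 72.3% Ccnd1, while replicates 2 to 4 held 49.3 to 52.3%. The ratio of Ccnd1 to Ccnd3 was higher in Atf4 null lenses by 0.97 on the log2 scale (exact permutation p = 0.0079, adjusted p = 0.014 over 7 ratios). The ratio of Ccnd1 to Ccnd2 was higher by 0.65, with log2 values of 1.67, 0.40, 0.31 and 0.30 in Atf4 null and -0.18, -0.13, -0.06, 0.16 and 0.33 in wildtype replicates (exact permutation p = 0.032, adjusted p = 0.044). Without Atf4 null replicate 1 this difference was 0.31 and did not pass (exact permutation, adjusted p = 0.10), nor did it pass without Atf4 null replicates 2 or 3 or wildtype replicates 1 to 4, each in turn (0.59 to 0.77, adjusted p = 0.05 to 0.12). The ratio of Ccnd2 to Ccnd3 differed by 0.32 (exact permutation p = 0.063, adjusted p = 0.074).

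Rb1 (ENSMUSG00000022105, chr14:73421113-73563507, minus strand) codes for the pocket protein on which these cyclins and inhibitors converge. It measured 40.8, 43.2, 40.7 and 50.4 CPM in Atf4 null replicates 1 to 4 and 39.5, 42.1, 35.9, 50.3 and 41.7 CPM in wildtype replicates 1 to 5. The groups overlapped almost fully, with means of 43.8 ± 4.57 and 41.9 ± 5.26 CPM and a log2 fold change of 0.06 (SE 0.15, edgeR quasi-likelihood adjusted p = 0.882). Rcbtb2 and Lpar6, on the opposite strand, share 488 and 408 exon bases with Rb1. Rcbtb2 measured 42.2 ± 2.53 CPM in Atf4 null and 52.2 ± 5.40 CPM in wildtype libraries (log2 fold change -0.31, edgeR quasi-likelihood adjusted p = 0.227). Lpar6 measured 5.31 ± 1.78 and 3.43 ± 1.16 CPM (log2 fold change 0.62, edgeR quasi-likelihood adjusted p = 0.487). In the same promoter windows, 3 of the 10 genes held an E2F element (TTTCCCGC, TTTCGCGC, TTTGCCGC or TTTGGCGC on either strand), which 2.82% of all promoters held, and none of these 3 passed the test. The elements lie 214, 134 and 226 bases before the starts of Rb1, Cdkn2d and Ccnd3, and are shown in capitals with 5 bases on either side; that of Cdkn2d overlaps a GC box. 
Rb1, chr14:73563714-73563721, minus strand: gctacTTTCCCGCtaaga
Cdkn2d, chr9:21202854-21202861, minus strand: tcctcTTTCCCGCccgcc
Ccnd3, chr17:47904138-47904145, plus strand: taactTTTGGCGCctagt

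**Figure D4:**
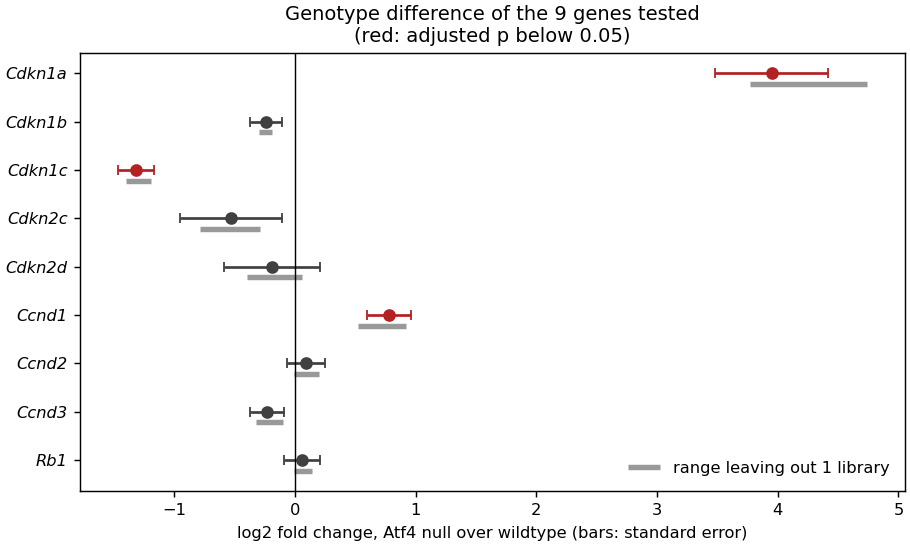
Log2 fold change of Atf4 null over wildtype (x axis) with its standard error for the 9 genes tested, red where the adjusted p was below 0.05, and below each point the range of the estimate when 1 library was left out (gray). Cdkn1a (3.95), Cdkn1c (-1.32) and Ccnd1 (0.78) stay on their side of 0, while the ranges of Cdkn2d, Ccnd2 and Rb1 reach across it.

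The genes around these 10 were then read in 7 lists. Among 12 kinases and cyclins that the inhibitors act on or that follow cyclin D, only Cdk6 passed, as higher (2.23% of all genes tested), 2 were at an unadjusted p under 0.05 (19.6% of all genes tested), and the median log2 fold change was -0.03. Cdk6, a kinase partner of the D cyclins, measured 81.0, 66.0, 57.9 and 70.0 CPM in Atf4 null replicates 1 to 4 and 31.3, 40.0, 38.0, 37.8 and 27.4 CPM in wildtype replicates 1 to 5. The groups did not overlap, and the log2 fold change was 0.98 (SE 0.16, edgeR quasi-likelihood adjusted p = 0.00252). Cdk4, the other partner, measured 89.0 ± 7.23 and 91.03 ± 9.49 CPM (log2 fold change -0.03, edgeR quasi-likelihood adjusted p = 0.924).

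None of 17 other pocket proteins, E2F and DP factors and MuvB subunits passed the edgeR quasi-likelihood test (2 at an unadjusted p under 0.05, which 19.6% of all genes tested had), with a median log2 fold change of 0.15. Its most abundant members were Rbbp4, a MuvB subunit (165 and 168 CPM, log2 fold change -0.02), and Tfdp1, a dimer partner of E2F (92.5 and 81.5 CPM, 0.18). None of 22 replication and mitosis genes under E2F and Rb family control passed either (0 at an unadjusted p under 0.05), and their log2 fold changes ran from -0.25 to 0.36 with a median of 0.08. Both lists also gave 0 calls with DESeq2, the edgeR exact test and the other alternatives tried. Mki67, the proliferation marker, measured 769, 459.6, 491 and 224 CPM in Atf4 null replicates 1 to 4 and 422, 475, 457, 505 and 535 CPM in wildtype replicates 1 to 5. The Atf4 null libraries thus lay on both sides of the wildtype range, with replicate 1 above it and replicate 4 below it, and the log2 fold change was 0.02 (SE 0.25, edgeR quasi-likelihood adjusted p = 0.977). Top2a, the topoisomerase of dividing cells, showed the same spread, from 103 to 394 CPM in Atf4 null against 192 to 238 CPM in wildtype libraries (log2 fold change 0.17, SE 0.26, edgeR quasi-likelihood adjusted p = 0.804). The retina marker sums of Atf4 null replicates 1 to 4 (841, 564, 626 and 333 CPM) had the same order as Mki67. Top2a was also highest in replicate 1 and lowest in replicate 4. Within the wildtype group, Mki67 was highest in replicate 5, whose retina sum (254 CPM) was below those of replicates 3 and 4. The part of retinal transcripts in these levels was not tested, so the lack of calls does not describe lens cells alone.

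Of 20 p53 target genes other than Cdkn1a, 10 rose and 1 fell (7 to 11 rose and 1 fell under the alternatives), beside 2.23% and 3.67% of all genes tested, and the median log2 fold change was 0.94 beside 0.001 over all genes tested. Zmat3, an RNA-binding protein gene, went from 25.7 ± 2.63 to 80.3 ± 9.90 CPM (log2 fold change 1.64, SE 0.14, edgeR quasi-likelihood adjusted p = 2.96e-05). Phlda3, a repressor of Akt signalling, went from 2.39 ± 1.24 to 25.8 ± 5.77 CPM (3.42, SE 0.38, adjusted p = 0.000182), Aen, an exonuclease gene, from 38.1 ± 5.05 to 101 ± 24.7 CPM (1.41, SE 0.17, adjusted p = 0.000293) and the cyclin G gene Ccng1 from 99.3 ± 16.4 to 239 ± 55.7 CPM (1.27, SE 0.17, adjusted p = 0.000644). The levels of these 4 genes, which were named for the lowest adjusted p, did not overlap between the groups. In the whole list 12 of 20 genes showed no overlap, beside 10.2% of all genes tested. The other genes that rose were Eda2r, Bbc3, Trp53inp1, Tnfrsf10b, Btg2 and Mdm2. Sesn1 fell from 39.5 ± 3.38 to 20.8 ± 4.24 CPM (log2 fold change -0.92, SE 0.18, edgeR quasi-likelihood adjusted p = 0.00786). Trp53, the gene of p53 itself, measured 35.9 to 38.6 CPM in Atf4 null and 23.96 to 32.2 CPM in wildtype libraries without overlap, and its log2 fold change of 0.46 (SE 0.15) did not pass (edgeR quasi-likelihood adjusted p = 0.104).

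None of 15 ubiquitin ligase genes that turn over the inhibitors and D cyclins passed the edgeR quasi-likelihood test, beside 5.90% of all genes tested. An unadjusted p under 0.05 was found for 2 of them, beside 19.6% of all genes tested. The list had a median log2 fold change of 0.00 and 0 to 2 calls under the alternatives. Of its 2 most abundant members, the cullin scaffold Cul4a measured 205 ± 44.8 in Atf4 null and 146 ± 10.2 CPM in wildtype libraries (log2 fold change 0.49, adjusted p = 0.0601, passing in 7 of 18 alternatives), and its adaptor Ddb1 measured 517 ± 33.8 and 520.2 ± 29.1 CPM (-0.01, adjusted p = 0.979). Of 13 growth-signal genes, mostly transcription factors, 12 were tested, 3 rose and 1 fell (1 to 5 rose and 0 to 2 fell under the alternatives), beside 2.23% and 3.67% of all genes tested, with a median of 0.54. Egr1 went from 13.3 ± 3.98 to 38.4 ± 13.7 CPM (log2 fold change 1.53, SE 0.28, edgeR quasi-likelihood adjusted p = 0.00531), Junb from 7.73 ± 2.59 to 18.99 ± 3.61 CPM (1.29, adjusted p = 0.0175) and Jun from 106 ± 10.5 to 169 ± 43.8 CPM (0.67, adjusted p = 0.0208). Axin2, a feedback target of Wnt signalling, fell from 54.4 ± 5.80 to 24.2 ± 11.5 CPM (-1.16, SE 0.30, edgeR quasi-likelihood adjusted p = 0.0347), a call that was lost without wildtype replicates 1 to 4 or Atf4 null replicates 2 or 3, each in turn, and under library size alone, while that of Junb was lost without Atf4 null replicate 2 and that of Jun without it or wildtype replicates 2, 3 or 4.

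Of 14 lens transcription factors and Notch genes linked to cell cycle exit, 1 fell and none rose (0 to 2 rose under the alternatives), beside 3.67% and 2.23% of all genes tested, with 6 at an unadjusted p under 0.05 (19.6% of all genes tested) and a median log2 fold change of -0.15. Foxe3, a factor of the dividing lens epithelium, fell from 121 ± 33.1 to 25.9 ± 14.5 CPM without overlap (log2 fold change -2.23, SE 0.38, edgeR quasi-likelihood adjusted p = 0.00347). The epithelium marker sum, which includes Foxe3 itself, was lower as well in the Atf4 null lenses. It is therefore not a separate measure beside Foxe3, and the part of epithelium content in the Foxe3 difference was not tested. The fiber factors Maf (1524 ± 622 and 1516 ± 346 CPM, log2 fold change 0.01) and Prox1 (842 ± 319 and 1001 ± 254 CPM, -0.25), the latter known to promote Cdkn1b and Cdkn1c expression in the lens, did not pass (edgeR quasi-likelihood adjusted p = 0.993 and 0.657).

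**Figure D5:**
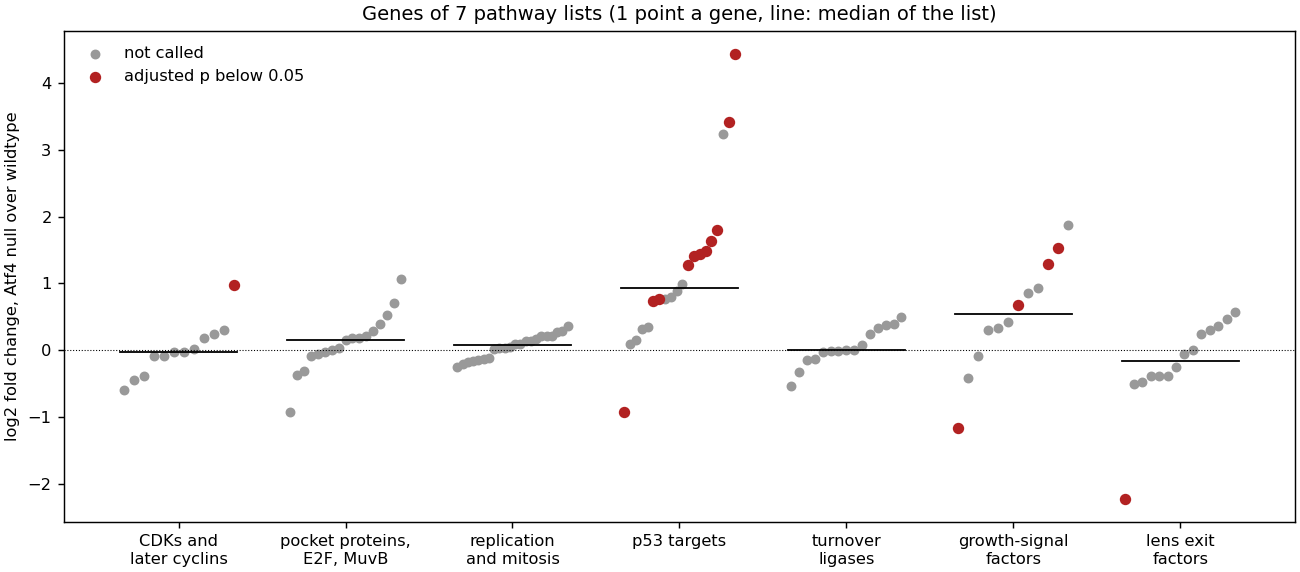
Log2 fold change of Atf4 null over wildtype (y axis) for each tested gene of the 7 lists (1 point a gene, red where the adjusted p was below 0.05, line at the list's median). The p53 targets have a median of 0.94 with 10 genes called higher, while the replication and mitosis genes stay between -0.25 and 0.36 with none called.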

How the data were processed

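Gene-level read counts of 9 libraries were used as deposited: per the study's methods and the submitters' processing notes, the authors trimmed reads with Trim Galore, aligned them with HISAT2 to GRCm39 and counted them with HTSeq, and whether counting used strand is not given in the sources used here. The library kit keeps strand. The 5 summary entries of the counter (44.56 to 47.72% of reads) were left out of library sizes. Symbols and positions came from GENCODE vM39 on GRCm39, and 54749 of 55416 gene identifiers had a symbol (the others held 0.033% of counts). Groups were taken from the sample labels, and wildtype replicate numbers, which follow sample titles that name other libraries than the attached count tables do, serve as names only. The pathway and marker lists, like the 10 genes, were chosen with earlier results of these data known.

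Counts were filtered with filterByExpr (14903 genes kept), scaled with TMM and tested with the edgeR quasi-likelihood test (edgeR 4.0.16, R 4.3.3) with Benjamini-Hochberg adjustment and a threshold of 0.05. The study used the edgeR exact test, which was run as an alternative. Single values were tested by two-sided exact permutation over samples, and ratios of related genes used counts plus 0.5 per exon kilobase. FPKM used the union of exons. The quasi-likelihood test was tested on simulated data. Of each list, up to 4 genes with the lowest adjusted p below 0.05 were named, or the 2 most abundant where fewer than 2 passed. Sesn1, Trp53 and the other p53 targets listed by name were named after their values were seen. Alternatives were library size alone, TMM without crystallin genes, DESeq2 1.42.0, the exact test, a robust fit, 2 other count filters, the replicate number as a block and each library left out in turn. Libraries held 7440807 to 8906996 counts, and the bound given for 0 counts covers counting error only. Replicates were separate pairs of lenses. Some sequences and 1 gene name are not reported here. No 2 libraries agreed within sampling noise (lowest chi-square per degree of freedom 7.7 over 36 pairs). Other marker lists gave sums per library, Atf4 null against wildtype, of 183 to 256 and 231 to 743 CPM (red blood cells), 170 to 377 and 322 to 595 CPM (vascular endothelium), 84.3 to 97.8 and 78.9 to 102 CPM (macrophages), 43.1 to 109 and 20.2 to 141 CPM (pigment cells), and 1.75 to 4.68 and 0.128 to 21.7 CPM (surface ectoderm and cornea).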

Additional observations from a re-analysis of the deposited data

Results flagged for a closer look

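In 20 groups of libraries examined (each gene in each genotype, of which Cdkn2a in Atf4 null was at 0 throughout), 2 held a library far from the others, where a gap of this size is expected by chance in about 1 in 20 groups. Cdkn1a measured 8.78 CPM in wildtype replicate 5, against 2.96 CPM in the next wildtype library. That library also held the muscle and mesenchyme transcripts, whose part in its Cdkn1a level was not tested. Cdkn2d measured 8.89 CPM in wildtype replicate 2, against 4.88 CPM in the next.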

How the results depend on the processing

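Cdkn1a and Cdkn1c passed with the same direction in all 18 alternatives, at log2 fold changes of 3.77 to 4.91 and -1.40 to -1.19, and Ccnd1 in 14 of 18 (0.51 to 0.94, adjusted p 0.00049 to 0.069). With Atf4 null replicate 1 and wildtype replicate 5 both left out, an alternative chosen after seeing the data, 2 genes rose, 1 fell and Ccnd1 was at 0.51. Leaving out 1 library at a time gave log2 fold changes of 0.52 to 0.92 for Ccnd1, -0.40 to 0.06 for Cdkn2d, -0.01 to 0.20 for Ccnd2, -0.01 to 0.14 for Rb1, -0.08 to 0.01 for Cdk4, -0.09 to 0.02 for Rbbp4, -0.29 to 0.26 for Mki67, -0.20 to 0.41 for Top2a, -0.04 to 0.04 for Ddb1 and -0.30 to 0.20 for Maf, with 1 to 2 of the 10 genes called higher and 527 to 1207 of all genes called (880 in the fit reported). The ratio differences ranged from 0.31 to 0.77 (Ccnd1 over Ccnd2), 0.61 to 1.18 (Ccnd1 over Ccnd3), 0.27 to 0.41 (Ccnd2 over Ccnd3), 4.32 to 5.00 (Cdkn1a over Cdkn1b), 5.40 to 6.10 (Cdkn1a over Cdkn1c) and 0.89 to 1.19 (Cdkn1b over Cdkn1c). Without wildtype replicates 1 to 4, each in turn, the adjusted p of the Ccnd1 over Ccnd3 and the CIP/KIP ratios was 0.05. DESeq2 called 1397 genes and the fit without both libraries 1339. Library size alone put the median log2 fold change of all genes at 0.125, from 0.001 in the fit reported. It gave 0.10 for Cdk4, 0.11 for Rbbp4 and 0.11 for Ddb1, and without both libraries Mki67 was at -0.24, Top2a at -0.14 and Ddb1 at 0.01. A minimum of 10 counts in every library put Maf at -0.00. As shares of CPM in place of FPKM, Ccnd1, Ccnd2 and Ccnd3 held 40.0, 48.9 and 11.1% in Atf4 null and 28.8, 55.6 and 15.6% in wildtype lenses, and Cdkn1a and Cdkn1c 6.80 and 86.2% against 0.204 and 96.3%, so which of Ccnd1 and Ccnd2 leads depends on the length used. The labels' replicate numbers did not pair the libraries (correlations of deviations -0.13, -0.02, -0.02 and 0.01, none of the 4 Atf4 null libraries correlating best with its own number). With the replicate block Cdkn1a was at 4.74, Cdkn1c at -1.38, Ccnd1 at 0.71, Ccnd2 at -0.01, Mki67 at -0.06 and Maf at -0.22, and 2 genes rose and 1 fell as without it. The cause of these shifts was not tested. Levels under 10 CPM, as of Cdkn2c and Cdkn2d, limit what the depth can show.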

Other observations

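Cdkn1c and Ccnd1 lie 1468861 bases apart on chromosome 7, and 18 tested genes lie between them, of which 1 passed as higher (Tnfrsf23) and 1 as lower (Dhcr7) in Atf4 null lenses, beside 2.23% and 3.67% of all genes tested. On the other side of Cdkn1c, Kcnq1ot1, the long noncoding RNA of the same imprinted domain, measured 349, 339, 329 and 299 CPM in Atf4 null replicates 1 to 4 and 720.2, 645, 569, 553 and 712 CPM in wildtype replicates 1 to 5. The groups did not overlap (log2 fold change -0.96, SE 0.12, edgeR quasi-likelihood adjusted p = 0.000421). Kcnq1ot1 is known as the paternal transcript that silences Cdkn1c in cis, and both were lower in the Atf4 null lenses. The other neighbours picked from the imprinted region did not pass: Nap1l4 (0.32), Tssc4 (0.34), Cd81 (0.17), Kcnq1 (-1.65), H19 (-0.25) and Igf2 (-0.24, all log2 fold changes), and Phlda2 was too low to be tested. These neighbours were chosen after their values were seen.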
